A study of Homo sapiens with 6 samples.

Results

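The BCL2 family decides whether a cell opens its outer mitochondrial membrane and dies by apoptosis. Its mRNAs were read in EJ cells, an established human bladder cancer line, after stable knockdown of STIL, a centriole duplication protein. The genes examined were 10 rows of the deposited tables, chosen by gene symbol (BCL2, BCL2L1, MCL1, BCL2A1, BCL2L2, BCL2L11, BAK1, BID, BIK and BMF), among 15953 genes in all. All 10 were found in every library. BAX and further relatives were not part of this set and are described as pathway genes.

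RNA-seq was performed on 2 groups of 3 libraries each. The labels name them shNC, EJ cells with a negative control hairpin, and shSTIL, EJ cells with a short hairpin against STIL. The study's methods describe lentiviral vectors and stable cells, and the column headings of the tables call the same groups siNC and siSTIL. Sequences of siRNAs against STIL are listed by the study, but the hairpin that the vectors carry, the number of hairpins, and whether the cells were a pool or a clone are not given in the sources used here. Nor is it given that the replicates came from separate cultures, so P-values measure the spread between these libraries, which may be technical.

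The family works as 3 groups of proteins. Guardians (BCL2, BCL2L1, which encodes BCL-XL, MCL1, BCL2L2, which encodes BCL-W, and BCL2A1, also called BFL-1) keep cells alive by holding the others in check. Effectors such as BAK1 form pores in the outer mitochondrial membrane, through which cytochrome c escapes. BH3-only proteins (BCL2L11, which encodes BIM, BID, BIK and BMF) carry stress signals to the guardians and effectors. Many tumour cells rely on MCL1 or BCL-XL to survive.

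The BH3 region takes part in the binding between these proteins, and its core was looked for in each member. A script translated the principal GENCODE 29 transcript of each member. It searched for a leucine or methionine, any 3 residues, a glycine or alanine, and an aspartate. The pattern occurred once in 9 of the 10 members and was not matched in BCL2A1. The 27 coding bases around it are shown to place the members beside each other, 5′ to 3′ on the coding strand, in GRCh38. Capitals mark the codons of the first position and of the last pair of the pattern.
BCL2L1 (chr20:31721931-31721957, minus strand): caagcgCTGagggaggcaGGCGACgag
BCL2 (chr18:63318358-63318384, minus strand): ctgaccCTCcgccaggccGGCGACgac
BCL2L2 (chr14:23307897-23307923, plus strand): caagccATGcgggcagctGGAGATgag
MCL1 (chr1:150578874-150578900, minus strand): gagaccTTAcgacgggttGGGGATggc
BAK1 (chr6:33575396-33575422, minus strand): cggcagCTCgccatcatcGGGGACgac
BCL2L11 (chr2:111150097-111150123, plus strand): caagagTTGcggcgtattGGAGACgag
BID (chr22:17739424-17739450, minus strand): aggcacCTCgcccaggtcGGGGACagc
BIK (chr22:43127710-43127736, plus strand): ctgcggCTGgcctgcatcGGGGACgag
BMF (chr15:40104204-40104230, minus strand): cgaaagCTTcagtgcattGCAGACcag

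Across these 27 bases, BCL2L2 matched BCL2L1 at 19 positions, and BCL2 and BCL2L11 each at 17. BID matched at 10, MCL1 and BAK1 at 11, BMF at 12 and BIK at 13. BCL2L2 was the guardian with methionine in place of leucine at the first position, and BMF the member with alanine in place of glycine. RSEM shares reads between similar transcripts. In all 6 libraries 9 members, BCL2L1 among them, had whole reads (within 0.02), whereas BCL2L2 had fractions of reads in several, such as 542.16 and 596.25. The read-through gene BCL2L2-PABPN1, described below, also had fractions in those libraries, 195.65 and 207.17.

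The libraries held 16214770 to 16901634 reads in genes. STIL, the targeted gene, had log2 CPM (log2 of a gene's reads relative to all reads of its library, after scaling between libraries) of 5.98, 6.10 and 6.01 in shNC and 4.05, 4.06 and 4.01 in shSTIL. Thus 25.2% of the control level was left. Of the epithelial markers, KRT18 had 10049 to 10825 reads, KRT8 3806 to 6198 and KRT7 1345 to 2229 per library, while EPCAM had 15 to 21, GATA3 4 to 9, CDH1 at most 3 and KRT5 at most 1. VIM, a mesenchymal marker, had 15492 to 23924 reads. The urothelial marker UPK1B had 13 to 20 reads in shNC and 5 to 11 in shSTIL, and UPK2 at most 5. KRT19 and UPK3A were absent. The 10 genes of this marker list, VIM among them, summed to 2523 to 2621 CPM in shNC and 1873 to 1919 in shSTIL. VIM alone had 1450 to 1491 CPM in shNC and 905 to 930 in shSTIL, so it carried most of this fall. Of the list, 1 gene was higher and 3 were lower, and their part in the results was not tested. BCL2A1 and BCL2 are also known from blood cells. Of 6 blood cell markers 1 was in the tables, CD14 at 1 to 4 reads per library, and of 3 endothelial markers none exceeded 11 reads. In bulk RNA, fewer cells with a transcript and less of it per cell cannot be told apart.

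The guardians BCL2L1, MCL1 and BCL2A1 and the effector BAK1 were higher in shSTIL than in shNC cells, and the BH3-only gene BMF was lower (limma adjusted p under 0.01 over all 15953 genes). The other 5 members, BCL2, BCL2L2, BCL2L11, BID and BIK, did not pass. Thus 4 of 10 members were higher, against 23.5% of all genes tested, and 1 of 10 was lower, against 23.6% of all genes. The median log2 fold change of the 10 members was 0.19, against 0.0052 over all genes. The 13 relatives listed outside the set had 3 higher and 5 lower, with a median of -0.06. Because the members were chosen with earlier results of these data known, these counts and medians test no trait of the family. The groups did not overlap for 8 of the 10 members, 6 of them higher and 2 lower, against 60.3% of all genes, so that separation of the groups was common in this experiment.

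**Figure D1:**
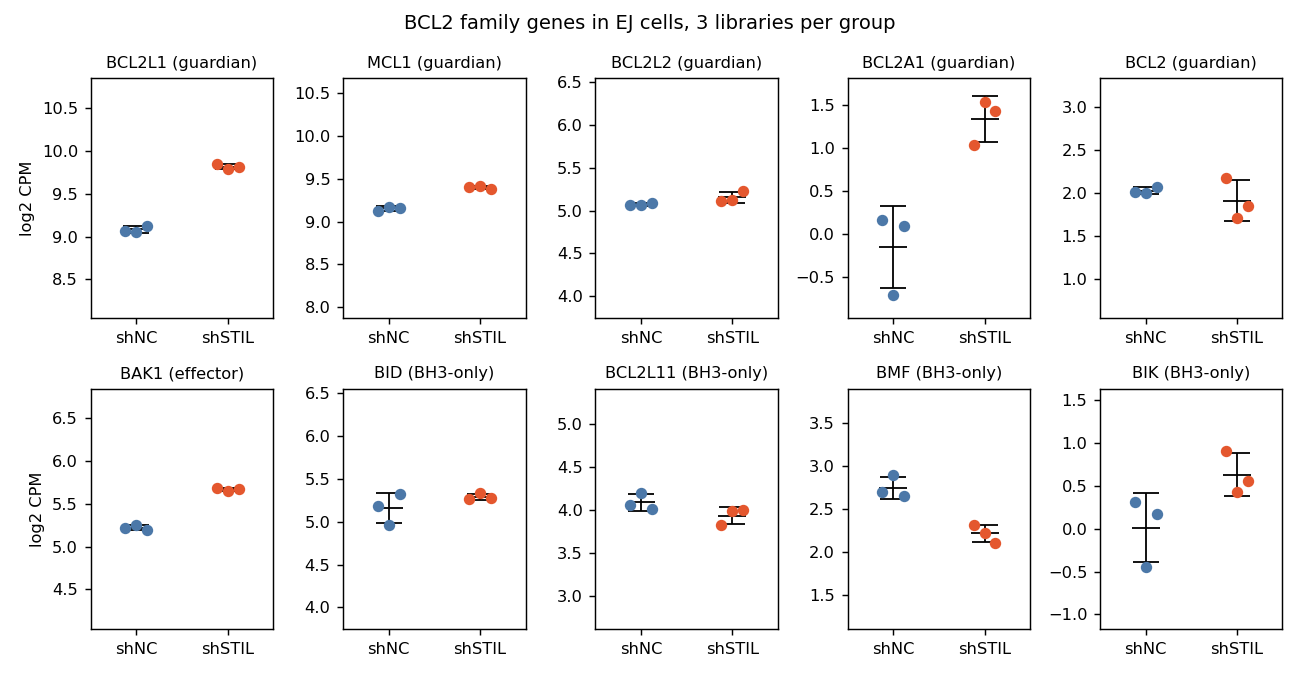
Log2 CPM of the 10 BCL2 family genes, each point 1 library, with the mean and SD (n = 3 per group). The y axis spans the same number of log2 units in every panel but starts at a different value. BCL2L1, MCL1, BAK1 and BCL2A1 sit higher and BMF sits lower in the shSTIL libraries, while the points of BCL2 and BID overlap between the groups.

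BCL2L1 encodes BCL-XL, which binds BAK1, BAX and BH3-only proteins at mitochondria. The gene spans chr20:31664452-31723989 (GRCh38, minus strand). BCL2L1 had log2 CPM of 9.07, 9.05 and 9.13 in the shNC libraries and 9.84, 9.79 and 9.81 in the shSTIL libraries. Every shSTIL library was higher than every shNC library, with a gap many times the spread within a group. These levels rest on 8612 to 8903 reads per shNC library and 15203 to 15699 per shSTIL library. The log2 fold change was 0.73 (standard error 0.03, 95% confidence interval 0.66 to 0.80, limma adjusted p = 6.04e-10), a 1.66-fold rise. It ranked 1090 by rise among all 15953 genes. BCL2L1 produces a long, protective transcript and a short one with the opposite effect, and the values here sum over both.

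MCL1 encodes a short-lived guardian that holds BAK1 and BIM. The gene spans chr1:150574551-150579738 (minus strand). The shNC libraries had log2 CPM of 9.13, 9.18 and 9.16, and the shSTIL libraries 9.40, 9.42 and 9.39, from 8969 to 9427 and from 11356 to 11763 reads. The groups were separate, but the step was smaller than that of BCL2L1. MCL1 rose by 0.25 on the log2 scale (SE 0.03, limma adjusted p = 8.24e-06), or 1.19-fold. It ranked 4547 by rise among all genes, and it was not called when tested against a minimum change of 1.2-fold (adjusted p = 1).

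BCL2A1 is a guardian best known from blood cells and as a target of NF-kB. It spans chr15:79960889-79971446 (minus strand). BCL2A1 had log2 CPM of 0.16, -0.71 and 0.09 in shNC and 1.04, 1.54 and 1.44 in shSTIL. Few reads stood behind these levels, 16, 8 and 15 in the shNC libraries and 33, 48 and 44 in the shSTIL libraries. The groups did not overlap. BCL2A1 had the largest log2 fold change of the 10 members, 1.49 (standard error 0.26, 95% confidence interval 0.93 to 2.05, limma adjusted p = 0.000241), and ranked 159 by rise. When single libraries were dropped, the change lay between 1.21 and 1.65, and the adjusted p between 0.00629 and 0.0284. Only the fit without shNC replicate 2 kept the call, and the other 5 of 6 lost it.

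BCL2L2 encodes BCL-W. In shNC it had log2 CPM of 5.07, 5.06 and 5.09, and 5.12, 5.12 and 5.23 in shSTIL. The shSTIL libraries were all higher, but by little. The log2 fold change of 0.08 (95% confidence interval -0.03 to 0.19, limma adjusted p = 0.199) did not pass. A read-through gene, BCL2L2-PABPN1, contains BCL2L2 sequence and took 160.64 to 245.26 estimated reads per library beside the 535.02 to 633.21 of BCL2L2. With the reads of both summed, the log2 fold change was 0.05 (adjusted p = 0.456).

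BCL2, the founding guardian and the target of venetoclax, was expressed at a low level. Its log2 CPM was 2.02, 1.99 and 2.07 in shNC and 2.17, 1.70 and 1.85 in shSTIL, from 54 to 75 reads per library. The shSTIL libraries lay on both sides of the shNC libraries, with a log2 fold change of -0.12 (95% confidence interval -0.47 to 0.22, limma adjusted p = 0.57).

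BAK1, the effector of the set, spans chr6:33572547-33580293 (minus strand). The shNC libraries had log2 CPM of 5.22, 5.25 and 5.19, and the shSTIL libraries 5.69, 5.65 and 5.67. The 3 values of each group stood close together and the groups were well apart, with 579 to 618 and 862 to 880 reads per library. BAK1 rose by 0.45 on the log2 scale (SE 0.04, 95% confidence interval 0.36 to 0.55, limma adjusted p = 9.87e-07), or 1.37-fold. BAK1 stayed past the threshold with any library left out. Taken gene by gene, an exact permutation test (two-sided, 20 labellings) gave p = 0.1 for BCL2L1, MCL1, BCL2A1, BAK1 and BMF, the smallest p that 3 libraries against 3 allow.

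**Figure D2:**
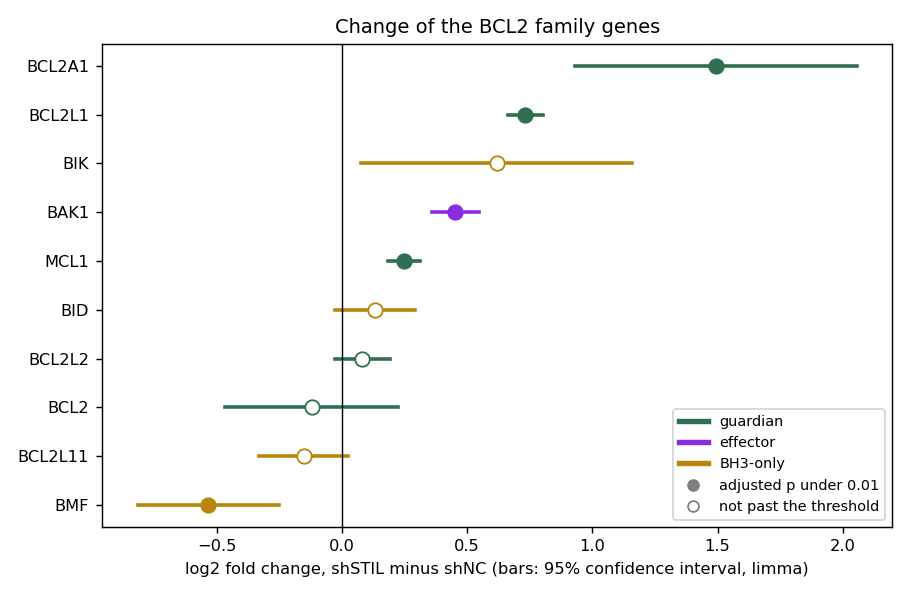
Log2 fold change of each member (x axis, shSTIL minus shNC) with its 95% confidence interval from limma, coloured by role, with filled points for genes past the adjusted p of 0.01. BCL2A1, BCL2L1, BAK1 and MCL1 lie to the right and BMF to the left, and the interval of BIK, at 0.08 to 1.16, lies above 0 although its adjusted p did not pass.

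Of the 4 BH3-only genes, 1 was called lower and 0 higher, against 23.6% and 23.5% of all genes. BMF encodes a BH3-only protein that dynein light chains tether to the cytoskeleton. It spans chr15:40087890-40108892 (minus strand). BMF log2 CPM was 2.70, 2.89 and 2.65 in shNC and 2.31, 2.22 and 2.11 in shSTIL. Every shSTIL library was lower than every shNC library, with 71 to 83 reads against 98 to 119. The change was -0.53 on the log2 scale (SE 0.13, limma adjusted p = 0.00316), which left 69.1% of the control level. The direction was kept with any library left out (-0.58 to -0.46), but 6 of 6 such fits lost the call (adjusted p 0.0133 to 0.0239).

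BCL2L11 encodes BIM, which can bind every guardian of the set. BIM mRNA had log2 CPM of 4.06, 4.20 and 4.007 in shNC and 3.82, 3.99 and 3.997 in shSTIL. The groups did not overlap, but their nearest libraries were almost level. The log2 fold change was -0.15 (95% confidence interval -0.33 to 0.02, limma adjusted p = 0.135) and did not pass.

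BID links death receptors to mitochondria once caspase 8 cleaves it. Log2 CPM was 5.19, 4.97 and 5.32 in shNC and 5.26, 5.33 and 5.28 in shSTIL. The shSTIL values lay within or just above the wider shNC range, and the log2 fold change was 0.13 (95% confidence interval -0.03 to 0.29, limma adjusted p = 0.146).

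BIK, a BH3-only protein of the endoplasmic reticulum, was the member with the fewest reads beside BCL2A1. BIK log2 CPM was 0.31, -0.45 and 0.17 in shNC and 0.91, 0.42 and 0.56 in shSTIL, from 10 to 18 and from 21 to 30 reads. The groups did not overlap. Its log2 fold change of 0.62 (standard error 0.25) was near that of BCL2L1 but had a wide error and did not pass (limma adjusted p = 0.0503).

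To compare levels between members, CPM was divided by the length of the longest coding transcript of each gene in GENCODE 29 (CPM per kb). BCL2L1 was the most abundant member, with 208 ± 5.83 (SD, n = 3) CPM per kb in shNC and 345 ± 6.48 in shSTIL. MCL1 came second, with 145 ± 2.45 in shNC and 172 ± 1.90 in shSTIL. The next level was far lower. BAK1 had 16.8 ± 0.345 CPM per kb in shNC and 23.0 ± 0.304 in shSTIL, BID had 14.3 ± 1.74 and 15.7 ± 0.380, and BCL2L2 had 9.30 ± 0.111 and 9.85 ± 0.431. BCL2L11 had 3.23 ± 0.231 in shNC and 2.91 ± 0.196 in shSTIL.

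The lowest 4 levels in shNC were those of BMF, at 1.41 ± 0.130 CPM per kb, BIK at 0.959 ± 0.280, BCL2A1 at 0.784 ± 0.269 and BCL2 at 0.531 ± 0.0152. The libraries of BIK and BCL2A1 overlapped, as did those of BCL2A1 and BCL2, so that these neighbours were not separated. In shSTIL, BCL2A1 moved up to 2.36 ± 0.437, where its libraries overlapped those of BCL2L11, and BMF at 0.965 ± 0.0714 lay below BIK at 1.51 ± 0.291. BCL2 was last in both groups. With the median transcript length in place of the longest, BMF rose to 8.99 CPM per kb in shNC and 6.15 in shSTIL, above BCL2L11, and BID and BAK1 overlapped in shNC. BCL2L1, MCL1 and BCL2 kept their places.

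BCL2L1 and MCL1 together carried nearly all guardian mRNA per length, and their shares differed between the groups. BCL2L1 made up 57.4%, 56.4% and 57.9% of the guardian total in the shNC libraries and 65.7%, 64.5% and 65.3% in the shSTIL libraries. MCL1 made up 39.6%, 40.8% and 39.2% in shNC and 32.1%, 33.1% and 32.2% in shSTIL. Thus the share of MCL1 was lower in each shSTIL library although its own level was higher. The share of BCL2A1 was 0.216 ± 0.074% in shNC and 0.446 ± 0.086% in shSTIL (SD, n = 3). Summed by role, the guardians had 363 ± 6.37 CPM per kb in shNC and 530 ± 5.15 in shSTIL, and the effector 16.8 ± 0.345 and 23.0 ± 0.304. The sum of the 4 BH3-only genes was 20.3, 18.2 and 21.4 in shNC and 20.9, 21.3 and 20.9 in shSTIL, with overlap. With median transcript lengths this sum was larger and the order of the means turned, at 31.3 ± 1.37 in shNC and 30.3 ± 0.517 in shSTIL, so no direction is given. The guardian sum rests mainly on BCL2L1 and the BH3-only sum, by the longest transcripts, mainly on BID. These sums cover the members only and leave out BAX and the BH3-only genes outside the set. In CPM, BAX had 58.6 to 63.9 in shNC and 44.8 to 49.8 in shSTIL. BAK1 had 36.4 to 37.9 and 50.1 to 51.4, so the effector rise is that of BAK1 alone.

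**Figure D3:**
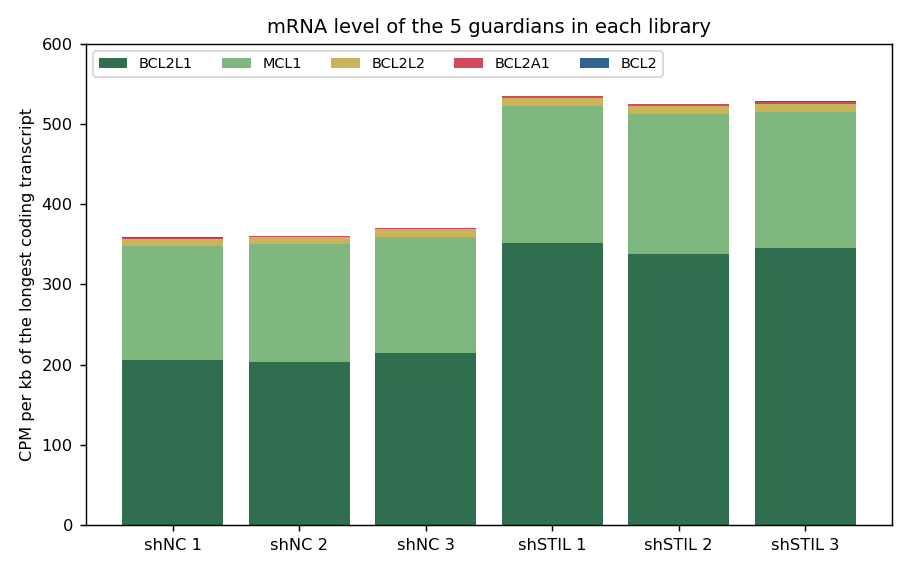
Level of the 5 guardian mRNAs in each library, as stacked CPM per kb of the longest coding transcript (y axis from 0). BCL2L1 and MCL1 fill almost the whole bar in each of the 6 libraries, and the shSTIL bars are taller mainly by their BCL2L1 part.

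Members that bind each other or share a role were compared within a library, as the difference of their log2 CPM, which scaling between libraries does not move. In 5 pairs compared, each difference changed without overlap of the groups (exact two-sided permutation test, p = 0.1, the smallest possible, and 0.1 after adjustment over the 5 pairs). These pairs draw on only BCL2L1, MCL1, BAK1 and BCL2L11, each without overlap by itself, so they are not independent results. The groups also did not overlap for 60.3% of all single genes. BCL2L1 minus MCL1 was -0.06, -0.12 and -0.03 in shNC and 0.44, 0.37 and 0.43 in shSTIL, a change of 0.48. BCL2L1 therefore passed from just below MCL1 to above it in reads, whereas per length it was above MCL1 in both groups. BAK1 minus MCL1 changed by 0.21, from -3.94 ± 0.03 to -3.73 ± 0.03 (SD, n = 3). BAK1 minus BCL2L1 changed by -0.28, from -3.86 ± 0.07 to -4.14 ± 0.0089. So BAK1 gained on MCL1 but lost ground to BCL2L1. BCL2L11 minus BCL2L1 changed by -0.88 and BCL2L11 minus MCL1 by -0.40. BCL2L11 itself changed by -0.15 and did not pass, so both differences mostly carry the rises of BCL2L1 and MCL1.

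Across the 6 libraries, the pattern of BCL2L1, the member with the largest change once BCL2A1 and BIK (mean log2 CPM below 1) were set aside, was most like those of PPM1K, CCDC50 and PDE10A. The Euclidean distances of their centred log2 CPM from BCL2L1 were 0.04, 0.06 and 0.07. With 6 libraries in 2 groups, such a distance mainly matches genes by the size of their difference between the groups.

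The other apoptosis genes were taken as 6 lists with 59 genes in the tables. Of these, 13 were higher and 19 lower, to be read against the 23.5% and 23.6% of all genes called, and the same shares apply to each list. The lower count was 12 without shSTIL replicate 2 and 11 without shSTIL replicate 3. Calls over all genes, in either direction, also fell in those fits, from 7509 to 5211 and 4900. Of the BCL2 relatives outside the set, 3 of 13 were higher and 5 lower (limma adjusted p under 0.01), with a median log2 fold change of -0.06. BAX, the second main effector, fell by 0.39 on the log2 scale (adjusted p = 1.68e-05), opposite to BAK1, from 956 to 1017 reads per shNC library to 767 to 856 per shSTIL library. The BH3-only genes BBC3, which encodes PUMA, and PMAIP1, which encodes NOXA, rose by 0.43 (adjusted p = 2.25e-05) and 0.30 (adjusted p = 3.06e-05). BCL2L13, a mitochondrial relative, rose by 0.44 (adjusted p = 1.12e-06). The largest change of this list was in BNIP3, a mitophagy receptor that responds to low oxygen, at -1.61 (standard error 0.04, adjusted p = 1.96e-12). Thus neither the BH3-only genes nor the effectors moved in 1 direction.

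In the apoptosome and caspase list, 3 of 9 genes were lower and 0 were higher, against 23.6% and 23.5% of all genes, with a median of -0.18. CYCS, which encodes cytochrome c, fell by 0.71 (adjusted p = 7.79e-08), CASP2 by 0.71 (adjusted p = 1.88e-09) and APAF1, the scaffold of the apoptosome, by 0.40 (adjusted p = 7.32e-05). The APAF1 call was lost without shSTIL replicate 2 and without shSTIL replicate 3 (adjusted p up to 0.0126). The other 6 genes of the list did not pass. Of 9 inhibitors of apoptosis (IAPs) and their mitochondrial antagonists, 4 were higher and 2 lower, with a median of 0.28. BIRC3 rose by 1.21 (adjusted p = 8.86e-11), BIRC2 by 0.96 (adjusted p = 2.32e-09), BIRC6 by 0.39 (adjusted p = 7.42e-06) and XIAP, which blocks caspases directly, by 0.28 (adjusted p = 2.57e-05). BIRC5 and HTRA2 were the lower genes of this list, and the HTRA2 call was lost under 11 of 15 alternatives, edgeR and DESeq2 among them.

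Of 13 death receptor, ligand and adaptor genes, 3 were higher and 4 lower, with a median of -0.19. CFLAR, which encodes the caspase 8 inhibitor FLIP, rose by 0.82 (adjusted p = 8.86e-11) and TNFRSF10B, the TRAIL receptor DR5, by 0.81 (adjusted p = 8.32e-11). The adaptor TRADD fell by 0.90 (adjusted p = 7.59e-07) and the receptor FAS by 0.49 (adjusted p = 1.59e-06). FASLG, with a call at 2 to 4 reads per shNC library and 0 in shSTIL, rests on almost no reads. Its call was lost with edgeR, and DESeq2 gave it no adjusted p. The call was also lost against a minimum change of 1.2-fold and with any shSTIL library left out.

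Of 8 genes for turnover or tethering of MCL1 and BH3-only proteins, 2 were higher and 3 lower, with a median of -0.09. DYNLL1, the dynein light chain known to bind BIM, fell by 0.51 (adjusted p = 4.06e-08), and DYNLL2, the one known to bind BMF, by 0.17 (adjusted p = 0.00662). BTRC, a ubiquitin ligase subunit, rose by 0.43 (adjusted p = 5.44e-06), and the deubiquitinase USP13 fell by 0.25 (adjusted p = 0.00492). The calls of DYNLL2 and USP13 were lost with any library left out (adjusted p up to 0.0541 and 0.0669), and also with median centring, with DESeq2, without the mean-variance trend and against a minimum change of 1.2-fold. The DYNLL2 call was lost under the replicate block as well (adjusted p = 0.0183). Of 7 partners of BAK and BAX at the outer membrane, 1 was higher and 2 lower, with a median of -0.06. SH3GLB1, which binds BAX, rose by 0.76 (adjusted p = 8.05e-09). MTCH2, the BID receptor of mitochondria, fell by 0.59 (adjusted p = 9.85e-09), and VDAC3, a membrane channel, by 0.44 (adjusted p = 1.49e-06).

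**Figure D4:**
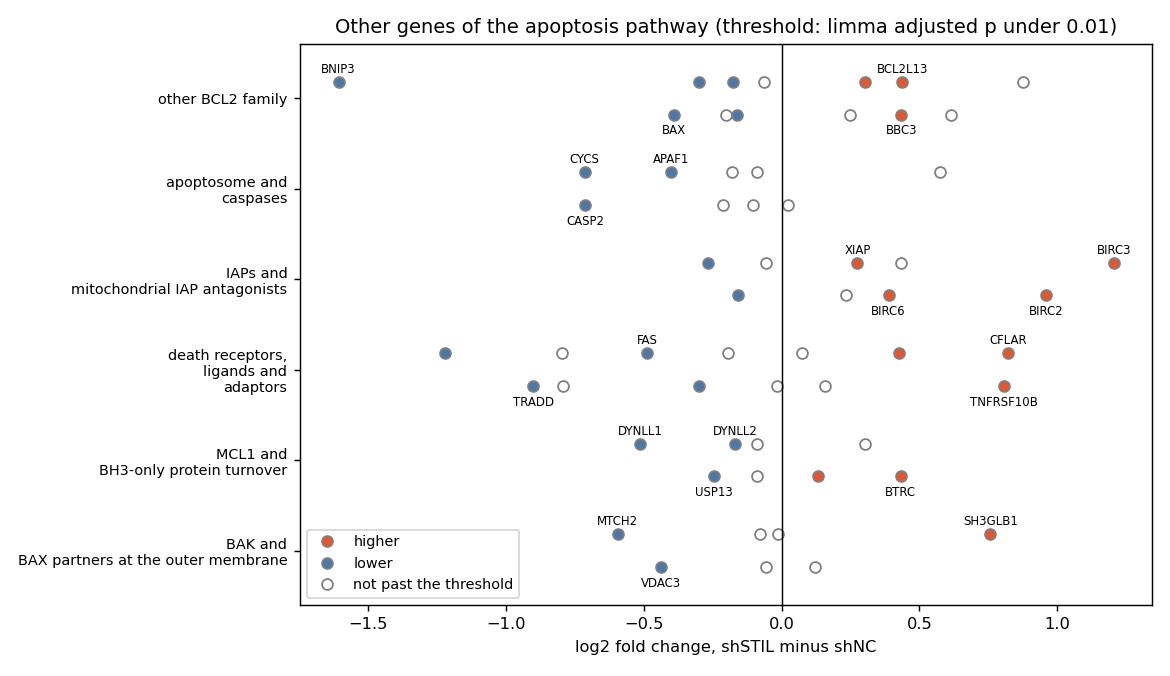
Log2 fold change (x axis, shSTIL minus shNC) of the 59 other apoptosis genes in 6 lists, each point 1 gene, red for higher and blue for lower at a limma adjusted p under 0.01, open otherwise. The labelled BIRC3, BIRC2, CFLAR and TNFRSF10B lie farthest right among called genes, and BNIP3 farthest left.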

How the data were processed

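RNA-seq libraries of shNC and shSTIL EJ cells (n = 3 each) were compared. Per the methods, SOAPnuke filtered the reads of a BGISEQ-500, Bowtie2 mapped them to transcripts (hg38 in the submitters' processing notes) and RSEM estimated reads per gene. The tables deposited are estimated counts for 4 libraries and, for all 6, log2 CPM that the authors computed with edgeR. Versions are not given in the sources used here.

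The log2 CPM values of the 15953 genes were compared between groups with limma 3.58.1 (mean-variance trend, Benjamini-Hochberg adjustment) in R 4.3.3, at the study's adjusted p under 0.01. Fold changes are on the log2 scale with the deposited prior count of 2, which understates changes of genes with few reads. Reads of shNC replicates 2 and 3 were recovered by inverting the log2 CPM. Of all values, 88.1% to 88.4% per library came within 0.02 of a whole read. The reads were rounded for edgeR 4.0.16 (quasi-likelihood test), which called 7831 genes where limma called 7509, and for DESeq2 1.42.0, which called 6781. Since deposited counts cover 4 libraries, log2 CPM was tested. The fits were tested on simulated data, where limma made more false calls than edgeR or DESeq2. Locations and transcript lengths are from GENCODE 29 (GRCh38). No protein sequence table was used here.

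Named were all 10 members, STIL, and from each pathway list up to 4 called genes with the largest change, given a mean of 1 or more in log2 CPM. PMAIP1, BIRC5, HTRA2 and FASLG were named after their values were seen. The members and lists were chosen with earlier results of these data known. Alternatives covered scaling, trend, filter, prior count, threshold, minimum fold, test, each library left out and the replicate block.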

Additional observations from a re-analysis of the deposited data

How the results depend on the processing

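The count of BCL2 family members called was 4 higher and 1 lower under quantile normalization, median centring, a prior count of 0.5, edgeR, DESeq2, limma with no trend, or an adjusted p under 0.05. Over all 15953 genes, those settings called from 5855 (no trend) to 8988 (adjusted p under 0.05) in either direction, where the main fit called 7509. Among genes with a mean of 1 or more in log2 CPM the members had 3 higher and 1 lower, because BCL2A1 is not tested there. Of those 11319 genes, 7448 were called. When tested against a minimum change of 1.2-fold, 3 members were higher and 0 lower. The pathway lists then had 7 higher and 8 lower genes in place of 13 and 19. That test called 3317 of all genes, so calls fell over the whole set of genes too. Across the fits that left out 1 library, 3 to 4 members were higher and 0 lower in each fit. Of the pathway genes, 12 to 13 were higher and 11 to 16 lower. These fits have fewer libraries and called 4900 to 5638 of all genes. None of the log2 fold changes of the named genes and none of the 5 differences between members changed sign under the alternatives run. Deviations from the group means correlated at -0.12, -0.06 and -0.11 over genes between libraries sharing a replicate number, and the labels tie no number to a batch, so no pairing was assumed. The replicate block gave 4 members higher and 1 lower, and 12 and 16 pathway genes, with 6898 of all genes called. Among named genes it ended the calls of DYNLL2 and HTRA2. Depth limits BCL2A1 and BIK, with 8 to 48 and 10 to 30 reads per library. The median transcript length, chosen after seeing the data, moved the level per kb of BCL2, MCL1, BID, BMF and BAK1, and the sums by role, by more than 1 SD. Transcript isoforms were not separated.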
